A study of Homo sapiens with 6 samples.

Results

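Withaferin A (WFA), a steroidal lactone from the plant Withania somnifera, was given to THP1 cells, which grow as a line from a human acute monocytic leukemia, and the transcripts of 10 transcription factors that direct the myeloid lineage were examined by RNA-seq. The factors were chosen by name from what is known of them, although earlier results of these data were known. They were the C/EBP genes CEBPA, CEBPB, CEBPD and CEBPE, the ETS genes SPI1, FLI1 and ERG, and GFI1, RUNX1 and IKZF1. They are 10 of the 26485 genes in the count table. Cells received the vehicle DMSO (3 libraries) or WFA (3 libraries) for 6 h in 3 independent experiments, with no other agent or genetic change in either group. The sample labels give the WFA concentration as 1 mM, whereas the study's text gives 1 μM for THP1 cells treated for 6 h, and the latter is taken to be meant here. THP1 is 1 cell line, so the libraries are repeats within 1 leukemia and not several.

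Myeloid cells arise from blood stem cells under a small set of factors that act together. PU.1, the product of SPI1, and C/EBPα switch on receptors and enzymes of monocytes and granulocytes, RUNX1 binds DNA together with CBFβ, and GFI1 is a zinc finger repressor that favors granulocytes over monocytes. FLI1 and ERG are closely related ETS proteins of stem and progenitor cells, and Ikaros, the product of IKZF1, is a zinc finger protein best known in lymphocytes. In acute myeloid leukemia several of these factors work alongside c-MYB.

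Libraries held between 11006035 and 13872810 counts. Values are given in CPM, the counts of a gene scaled to a common library size with TMM factors. A gene was called where edgeR's quasi-likelihood test of WFA against DMSO gave p under 0.05 after adjustment over all 12854 genes tested. In the same units a count of 3, taken as the floor of detection, equals 0.211 to 0.279 CPM, and this covers counting error only. All 10 monocytic marker genes examined were present and their summed level ranged from 3655 to 4115 CPM with DMSO and from 3399 to 4237 CPM with WFA. Among them CD33, CD14 and CSF1R fell, CD68 rose and 6 were not called. LYZ (means of 1823 CPM with DMSO and 1764 CPM with WFA) and ITGB2 (1081 and 1132 CPM) made up most of the sums. Neither was called, and the sums hardly register less counted markers such as CD14. T cell (CD3D, CD3E, CD3G) and erythroid (KLF1, HBB) markers never exceeded 3 counts per library, and PF4, KRT19 and COL1A2 had 0 in all 6. The other megakaryocyte markers reached 10 counts (ITGA2B) and 8 counts (GP9), and the other epithelial markers 3 (EPCAM) and 4 (CDH1), and none of these passed the filter on low counts. Of the fibroblast markers, 1 was called. COL1A1, a fibroblast collagen gene, rose from at most 10 counts to between 106 and 135 in WFA libraries (edgeR adjusted p = 7.18e-08). It passed the filter on low counts only because of its WFA libraries, so a rise was built into its being tested. The summed fibroblast list was 0.563 to 1.08 CPM with DMSO and 9.02 to 12.7 CPM with WFA, all but COL1A1 staying at 6 counts or fewer. Its part in the results below was not tested.

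Of the 10 factors, 8 were lower with WFA, 1 was higher (CEBPB) and 1 was not called (CEBPE). Among all tested genes 24.7% were called lower and 25.8% higher. GFI1, ERG, RUNX1 and IKZF1 fell by more than 2-fold, which 5.2% of tested genes did. In 7 of the 10 every WFA library lay under every DMSO library, as in 28.5% of tested genes, and CEBPB showed the reverse, as in 29.6%. The median log2 fold change was -0.64 over the 10 factors and 0.02 over all tested genes. All 10 passed the filter on low counts, ERG only because of its DMSO libraries. A fall of ERG was thus built into its being tested, and ERG is included in each of these counts of lower factors. Where every library had to hold 10 counts, which left ERG out, 7 factors were called lower. Together the 10 genes took 0.135% to 0.139% of all counts with DMSO and 0.0643% to 0.0782% with WFA.

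**Figure D1:**
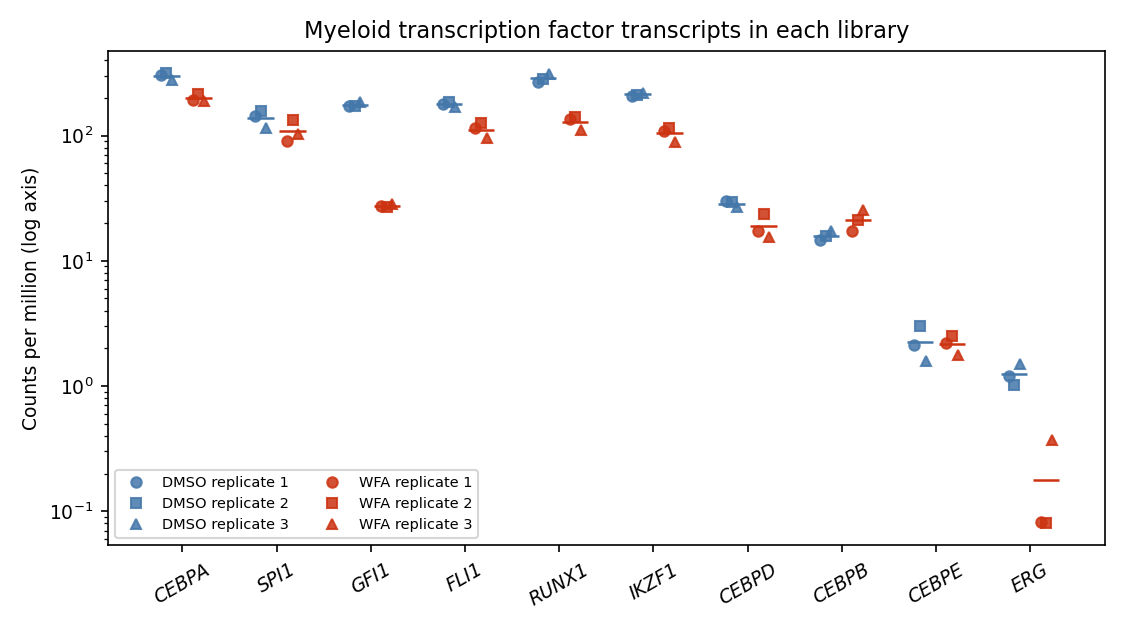
Expression of the 10 factors in CPM on a log axis, with 1 symbol for each of the 3 DMSO (blue) and 3 WFA (red) libraries and a bar at each group mean. GFI1 and ERG show the widest gaps between groups, CEBPB is the only gene whose WFA libraries all lie above its DMSO libraries, and the groups of SPI1 and CEBPE overlap.

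To order the factors by abundance, CPM were divided by the exonic length of each gene in kb. CEBPA was the most abundant with DMSO at 114 ± 6.97 CPM per kb (SD, n = 3), above 96.6% of the tested genes that had a length. SPI1 (66.5 ± 10.3), GFI1 (57.5 ± 2.39), FLI1 (39.5 ± 1.86), RUNX1 (34.9 ± 2.64) and IKZF1 (26.2 ± 0.820) followed in CPM per kb (SD, n = 3 each). Then came CEBPD at 13.2 ± 0.701, CEBPB at 8.08 ± 0.667, CEBPE at 1.44 ± 0.461 and ERG at 0.230 ± 0.0445 CPM per kb (SD, n = 3 each). Libraries of SPI1 and GFI1, and of FLI1 and RUNX1, overlapped, so these neighbors could not be ordered. With WFA, CEBPA and SPI1 were still the top 2 at 76.0 ± 5.52 and 52.5 ± 10.5 CPM per kb (SD, n = 3), while GFI1 was at 8.96 ± 0.266 CPM per kb and its libraries overlapped those of CEBPB and CEBPD. In rank among tested genes, GFI1 went from above 92.0% to above 54.7%. Lengths decide part of this order: by median transcript length rather than all exons, SPI1 stood at 112 CPM per kb with DMSO, next to CEBPA at 114.

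GFI1 (chr1:92474762-92486876, minus strand, GRCh38) had 173, 171 and 185 CPM in DMSO replicates 1, 2 and 3 and 27.2, 26.8 and 28.4 CPM in the WFA replicates. The groups were far apart and each was tight, with a coefficient of variation of 4.15% with DMSO and 2.96% with WFA. The WFA mean was 15.6% of the DMSO mean, a log2 fold change of -2.68 (95% interval -2.87 to -2.49, edgeR adjusted p = 1.79e-11). Within experiments 1, 2 and 3 the log2 ratios were -2.67, -2.68 and -2.70, the narrowest range of the 10 factors. GFI1 recruits the demethylase KDM1A (LSD1) with RCOR1 and histone deacetylases to silence genes. Of 7 genes for its paralog and corepressors, 6 were tested. KDM1A (log2 fold change -0.63), HDAC2 (-0.50) and RCOR1 (-0.48) fell, ZBTB17 (0.56) and RCOR3 (0.35) rose, and HDAC1 was not called (edgeR adjusted p from 1.67e-05 to 0.00816 for those called). The paralog GFI1B had at most 1 count.

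Of 10 genes that GFI1 is known to repress, 9 were tested, and 4 rose and 2 fell with a median log2 fold change of 0.52. Beside this and the list counts below stand the shares of all tested genes, 25.8% higher and 24.7% lower. The 4 that rose were CSF1, a growth factor of macrophages with 8 to 13 counts in DMSO libraries (log2 fold change 2.78, SE 0.30, edgeR adjusted p = 2.51e-06), the cell cycle inhibitor CDKN1A (2.01, SE 0.19, edgeR adjusted p = 5.99e-07), and BAX and EGR2. CSF1 passed the filter on low counts only because of its WFA libraries, so a rise was built into its being tested. The apoptosis gene BAX had a log2 fold change of 0.52 and the early gene EGR2 of 0.89. IRF8 (-2.24) and EGR1 (-0.85), a monocytic factor and an early response gene, fell despite standing on the same list, and MEIS1 was at the floor of detection. The number that rose was 3 in DESeq2 and where every library had to hold 10 counts. It was also 3 without DMSO replicate 2 or WFA replicate 1, and 5 in edgeR with the replicate block.

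The sequences ahead of transcript starts are shown for GFI1 and RUNX1, which fell, and for CEBPB, which rose, to let their letters be compared. RefSeq (GRCh38.p14) starts were found for 7 of the 10 factors with 15 windows of 250 bases in all. The 4 windows of these 3 genes without an annotated exon base are printed 5′ to 3′ on the gene's strand, ending at the base before the start. Capitals mark matches on either strand to 10 short motifs. These were TTGCNNAA for C/EBP, GAGGAA for PU.1, CGGAAG for other ETS factors, TGTGGT for RUNX, AAATCA for GFI1, CACGTG for the E-box, GAANNTTC for HSF, TGACNNNGC for NRF2, TGATGNAA for ATF4 and AACTGNC for MYB. The PU.1 and ETS motifs share GGAA but differ in the base before it.

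GFI1, first start, chr1:92486926-92487175, minus strand: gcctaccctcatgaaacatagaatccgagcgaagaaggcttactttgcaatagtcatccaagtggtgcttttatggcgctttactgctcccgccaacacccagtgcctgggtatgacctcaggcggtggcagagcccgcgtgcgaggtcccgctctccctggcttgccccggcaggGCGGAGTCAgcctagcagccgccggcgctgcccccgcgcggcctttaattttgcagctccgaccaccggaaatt

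GFI1, second start, chr1:92486100-92486349, minus strand: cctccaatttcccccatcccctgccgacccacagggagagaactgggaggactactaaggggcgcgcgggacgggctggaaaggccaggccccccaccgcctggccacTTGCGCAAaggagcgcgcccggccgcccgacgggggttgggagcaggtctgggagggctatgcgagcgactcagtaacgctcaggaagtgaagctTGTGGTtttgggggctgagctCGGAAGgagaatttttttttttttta

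RUNX1, chr21:34888700-34888949, minus strand: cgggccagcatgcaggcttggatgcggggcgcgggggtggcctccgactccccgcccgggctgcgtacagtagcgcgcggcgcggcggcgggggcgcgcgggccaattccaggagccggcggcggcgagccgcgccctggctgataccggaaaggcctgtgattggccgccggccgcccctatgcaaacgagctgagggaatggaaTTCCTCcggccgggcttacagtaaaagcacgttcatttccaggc

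CEBPB, chr20:50190333-50190582, plus strand: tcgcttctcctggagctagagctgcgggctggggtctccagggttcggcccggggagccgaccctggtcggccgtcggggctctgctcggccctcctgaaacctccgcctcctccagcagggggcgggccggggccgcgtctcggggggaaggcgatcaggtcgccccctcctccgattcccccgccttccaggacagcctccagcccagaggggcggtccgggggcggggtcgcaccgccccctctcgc

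The second GFI1 window held letters read by 3 of the other families, a C/EBP match TTGCGCAA, a RUNX match and an ETS match, which begin 142, 47 and 26 bases before the start. Over all 35116 windows of this length, 9.05% held a C/EBP match, 11.0% a RUNX match and 16.5% an ETS match. The first GFI1 window held 1 NRF2 match, as did 10.9% of windows. RUNX1 held 1 PU.1 match, as did 23.6%, and CEBPB held no match in this window. The windows of these genes that hold exon bases, not printed, had matches too. The other CEBPB window held 1 NRF2 match, and the third GFI1 window 1 PU.1 and 1 ETS match. Matches in all windows stood at 11.6% for GFI1, 6.34% for the E-box, 5.78% for HSF, 3.14% for ATF4 and 9.54% for MYB. The printed windows were 61.2% to 75.6% G and C, against a median of 58.0% over all windows. A match is a description of letters and not a site of binding.

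RUNX1 (chr21:34787801-36004667, minus strand) had 267, 284 and 310 CPM in DMSO replicates 1 to 3 and 135, 141 and 111 CPM in the WFA replicates. All WFA libraries lay well under all DMSO libraries, with a log2 fold change of -1.15 (95% interval -1.37 to -0.93, edgeR adjusted p = 3.49e-07). The fall was deeper in experiment 3 (log2 ratio -1.48) than in experiments 1 and 2 (-0.98 and -1.01). Its relatives went different ways. RUNX2, the factor of bone formation, fell with a log2 fold change of -0.73 (SE 0.08, edgeR adjusted p = 4.10e-06), and RUNX3 rose with 0.83 (SE 0.09, edgeR adjusted p = 1.84e-06). The gene of the shared partner CBFβ, CBFB, had 0.01 (SE 0.12) and was not called. For every 100 RUNX1 counts there were 27.0, 22.5 and 20.3 RUNX3 counts in DMSO replicates 1 to 3 and 90.3, 81.8 and 104 in the WFA replicates, a ratio within each library that no scaling enters.

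IKZF1 (chr7:50304068-50405101, plus strand) behaved much like RUNX1, at 207, 212 and 221 CPM in the DMSO replicates and 108, 116 and 88.9 CPM in the WFA replicates. The groups did not overlap, and the log2 fold change was -1.03 (95% interval -1.25 to -0.82, edgeR adjusted p = 7.40e-07). As for RUNX1, WFA replicate 3 was the lowest library, with log2 ratios of -0.94, -0.88 and -1.31 in experiments 1 to 3. All 4 other Ikaros genes were tested and were far less counted. IKZF3 (Aiolos), from 32 to 34 counts with DMSO and 13 or 14 with WFA, fell with a log2 fold change of -1.17 (SE 0.27, edgeR adjusted p = 0.00213). IKZF5 rose with 0.38 (SE 0.12, edgeR adjusted p = 0.0188), a call that was lost without DMSO replicate 1 or 2 or WFA replicate 1. IKZF2 (0.38) and IKZF4 (0.32) were not called.

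FLI1 (chr11:128686535-128813267, plus strand), which drives megakaryocytic and stem cell genes, had 178, 187 and 170 CPM with DMSO and 114, 125 and 95.6 CPM with WFA. The groups did not overlap, and the fall was shallower than that of RUNX1, with a log2 fold change of -0.68 (95% interval -0.89 to -0.46, edgeR adjusted p = 5.25e-05). Log2 ratios were -0.64, -0.58 and -0.83 in experiments 1 to 3.

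ERG (chr21:38380027-38661780, minus strand), its close relative and a factor of blood stem cells, was barely present, with 17, 13 and 18 counts in the DMSO libraries and 1, 1 and 4 counts in the WFA libraries. The groups did not overlap. From the summed counts, 48 against 6, ERG was 7.28-fold lower with WFA (95% exact binomial interval 3.11 to 20.8, counting error only). The fitted log2 fold change was -2.79 (95% interval -3.90 to -1.69, edgeR adjusted p = 0.000380). Since ERG passed the filter through the DMSO libraries alone, a difference was built into its being tested, and its interval covers that of GFI1.

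SPI1 (chr11:47354860-47378576, minus strand) encodes PU.1, the ETS factor on which monocytes depend. It had 143, 156 and 114 CPM in the DMSO replicates and 90.5, 133 and 103 CPM in the WFA replicates, so WFA replicate 2 lay above DMSO replicate 3 and the groups overlapped. In each experiment WFA was the lower library, but unevenly, with log2 ratios of -0.66, -0.23 and -0.15. The log2 fold change was -0.34 (95% interval -0.63 to -0.05, edgeR adjusted p = 0.0461), just within the threshold. The exact two-sided permutation test, which ignores the pairing by experiment, gave p = 0.2, where 0.1 is the smallest that 3 against 3 libraries allow. With the replicate block the call was kept (edgeR adjusted p = 6.83e-05), within the limits of that fit given below. The call was lost without DMSO replicate 1 (-0.32) or 2 (-0.25) and without WFA replicate 1 (-0.22) or 3 (-0.30). With upper-quartile factors (edgeR adjusted p = 0.0581) and in a robust fit (edgeR adjusted p = 0.0644) it was also lost.

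Of the 25 other ETS genes, 16 were tested, and 5 fell and 5 rose with a median log2 fold change of -0.06. ETV6, a repressor needed by blood stem cells, fell most (log2 fold change -0.78, SE 0.09, edgeR adjusted p = 8.56e-06), followed among the smallest p-values by ELK4 (-0.56) and ELF1 (-0.46). GABPA, which drives respiratory chain genes, rose with 0.54 (SE 0.10, edgeR adjusted p = 0.000327), and ELK1, a target of MAP kinases, with 0.73 (SE 0.15, edgeR adjusted p = 0.000730). SPIB, the nearest relative of PU.1, had 0.42 (SE 0.23) and was not called, and 8 genes were at the floor of detection.

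Of 17 genes that PU.1 is known to activate, 16 were tested. They split, with 6 lower and 3 higher, and had a median log2 fold change of -0.02. NCF1 (-1.59) and CYBB (-0.82), both parts of the phagocyte oxidase, fell, as did the kinase BTK (-0.60) and the receptor TLR4 (-0.68). Among those that rose was the integrin ITGAX (0.48). The edgeR adjusted p of these genes ran from 2.40e-05 to 0.00408. NCF1 has near-identical pseudogenes, and CSF2RA, whose copies on X and Y are identical, had 0 counts in all 6 libraries, so both are uncertain. CSF1R, ITGAM, ITGB2, FCGR1A, TYROBP and CD68 stand also on the monocytic marker list.

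**Figure D2:**
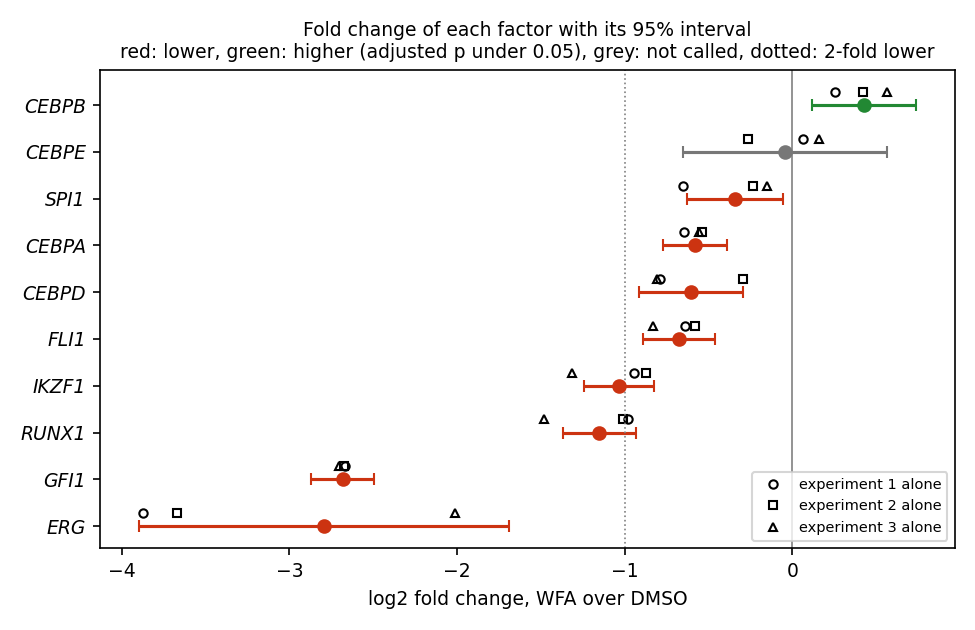
Log2 fold change (WFA over DMSO) of each factor with its 95% interval from edgeR, and the ratio within each experiment as open symbols. GFI1 shows nearly the same ratio in all 3 experiments, whereas the 3 ratios of SPI1 run from -0.66 to -0.15 and those of RUNX1 from -0.98 to -1.48.

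CEBPA (chr19:33299934-33302564, minus strand) encodes C/EBPα, which commits progenitors to the myeloid lineage. It had 304, 314 and 279 CPM with DMSO and 194, 216 and 189 CPM with WFA. No WFA library reached a DMSO library, and the log2 fold change was -0.58 (95% interval -0.77 to -0.39, edgeR adjusted p = 7.54e-05). The experiments were close, at -0.65, -0.54 and -0.56. A gene on the other strand, AC008738.3, shares 659 exonic bases with CEBPA, and the strand setting of the counts is not given. The transcript listed as CEBPA-AS1 fell too, from 16.3 ± 0.951 to 11.1 ± 0.492 CPM (SD, n = 3), with edgeR giving -0.55 on the log2 scale (adjusted p = 0.00235).

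CEBPD (chr8:47736909-47739086, minus strand), a C/EBP gene of acute inflammation, had 29.8, 29.3 and 26.9 CPM with DMSO and 17.2, 23.8 and 15.4 CPM with WFA. The groups did not overlap, though WFA replicate 2 came near. The log2 fold change was -0.60 (95% interval -0.92 to -0.29, edgeR adjusted p = 0.00297), and within experiments 1 to 3 it was -0.79, -0.30 and -0.81.

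CEBPB (chr20:50190734-50192689, plus strand), which takes over from CEBPA when myeloid cells respond to stress or cytokines, was the only factor that rose. It had 14.6, 15.7 and 17.2 CPM with DMSO and 17.4, 21.0 and 25.4 CPM with WFA. WFA replicate 1 lay only just above DMSO replicate 3, so the groups were adjacent but did not overlap. The log2 fold change was 0.43 (95% interval 0.12 to 0.74, edgeR adjusted p = 0.0235), with 0.26, 0.42 and 0.57 in experiments 1 to 3. The call was lost without DMSO replicate 1 (0.37) or 2 (0.41), without WFA replicate 3 (0.29), and with library totals in place of TMM (0.34). Its antisense neighbor CEBPB-AS1 shares 231 exonic bases with it and went from 2.13 ± 0.192 to 4.53 ± 1.73 CPM (SD, n = 3), with edgeR giving 1.07 on the log2 scale (adjusted p = 0.00567). Reads of the shared stretch cannot be told apart without strand.

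CEBPE (chr14:23117304-23119616, minus strand), the factor of late granulocytes, had 30, 38 and 19 counts with DMSO and 27, 31 and 19 with WFA. The groups overlapped fully. The log2 fold change was -0.04 (edgeR adjusted p = 0.912), and its 95% interval, from -0.65 to 0.56, leaves room for changes as large as that of CEBPA. Without DMSO replicate 2 or WFA replicate 3 the sign turned (0.21 and 0.08).

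Within the C/EBP genes the balance of counts moved toward CEBPB. CEBPA took 86.7%, 86.8% and 85.9% of their counts in the DMSO libraries and 84.0%, 82.0% and 81.6% in the WFA libraries. CEBPB took 4.16%, 4.34% and 5.29% with DMSO and 7.54%, 7.97% and 11.0% with WFA. For every 100 CEBPA counts there were 5.32 ± 0.736 CEBPB counts with DMSO and 10.7 ± 2.39 with WFA (SD, n = 3), while CEBPD stood between 9.32 and 9.80 with DMSO and between 8.12 and 11.0 with WFA. These ratios are of counts, not of levels per length, and they do not depend on the scaling.

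**Figure D3:**
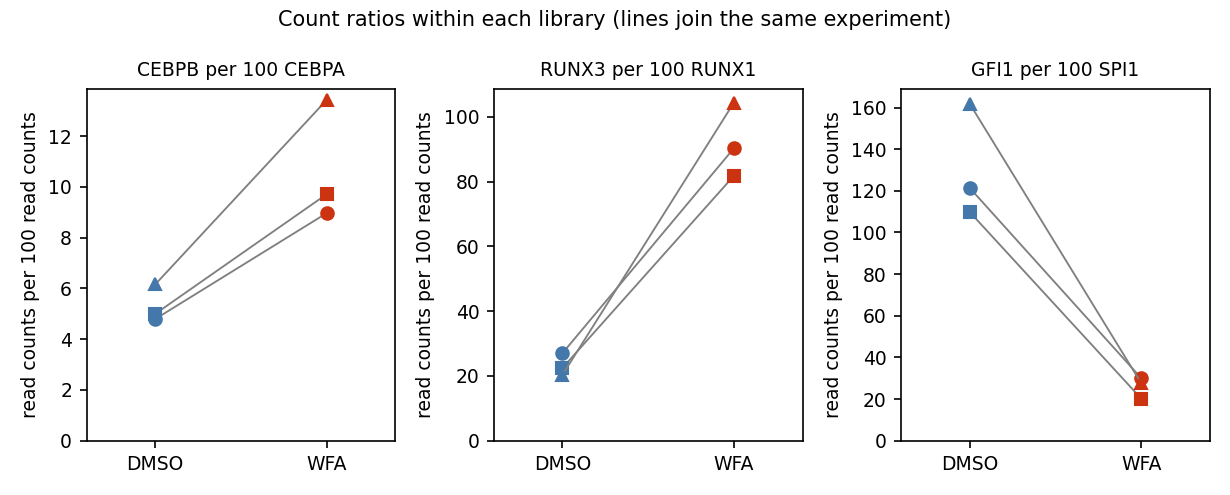
Read counts of 1 gene for every 100 read counts of another in the same library, with lines joining DMSO and WFA of the same experiment and axes that start at 0. CEBPB against CEBPA and RUNX3 against RUNX1 rise in all 3 experiments, and GFI1 against SPI1 falls in all 3, from 131 ± 27.3 to 26.0 ± 5.12.

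Of 6 genes for partners and regulators of C/EBP proteins, 4 rose and 0 fell, with a median log2 fold change of 0.46 (0 lower in edgeR also at an unadjusted p under 0.05, and 0 in DESeq2). DDIT3, which encodes the C/EBP-like stress factor CHOP, rose with 1.66 (SE 0.17, edgeR adjusted p = 1.07e-06). TRIB1 and TRIB2, adaptors that direct C/EBPα protein to degradation, rose with 0.89 (SE 0.14) and 0.46 (SE 0.15), and the stress factor ATF4 with 0.45 (SE 0.11). Without DMSO replicate 3, or with library totals, 1 gene of this list was called lower. COP1 (listed as RFWD2), the ligase that acts with the TRIB adaptors, had -0.16 (SE 0.10), and CEBPG had -0.02 (SE 0.09).

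Of 14 genes that C/EBP factors are known to activate, 7 were tested and 6 were at the floor of detection, among them the granule protease genes ELANE and PRTN3. The receptor gene CSF3R rose with a log2 fold change of 0.44 (SE 0.15, edgeR adjusted p = 0.0190) and PTGS2, a prostaglandin synthase, with 0.49 (SE 0.19, edgeR adjusted p = 0.0432). CD14, the endotoxin coreceptor, fell with -1.22 (SE 0.27, edgeR adjusted p = 0.00165). The count of 2 higher genes was unstable. It was 0 without DMSO replicate 1 or 3 or WFA replicate 2, and 1 without DMSO replicate 2 or WFA replicate 3. LYZ, the lysozyme gene and the most counted gene of the list, had -0.05 (SE 0.14).

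Among 20 other transcription factors of blood cells, 17 were tested, and 9 fell and 4 rose, with a median log2 fold change of -0.28. Beside IRF8, MYB (-2.30, SE 0.13, edgeR adjusted p = 2.89e-09) and MEF2D (-1.14, SE 0.09, edgeR adjusted p = 8.78e-08) fell by more than 2-fold, as did NFE2 (-1.71) and ZEB2 (-1.15). BCL6, a repressor, rose with 1.75 (SE 0.12, edgeR adjusted p = 3.04e-08). GATA1 and MECOM had 0 counts in all libraries.

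**Figure D4:**
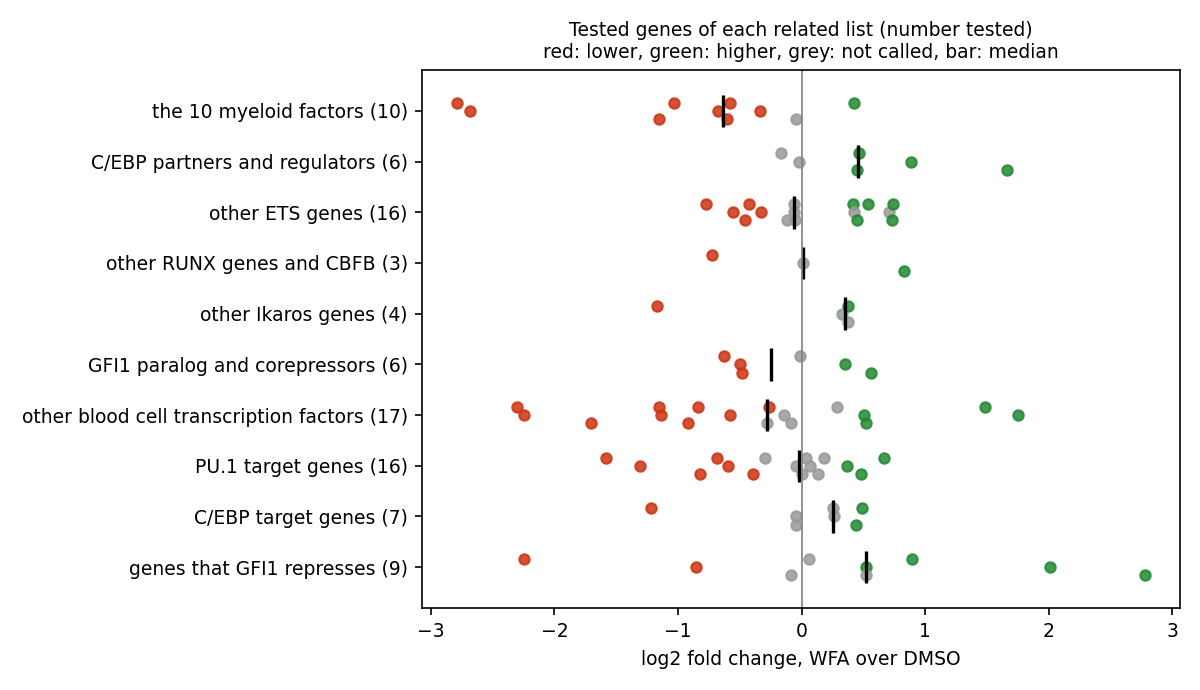
Log2 fold change (WFA over DMSO) of every tested gene of the related lists beside the 10 factors, with red points lower, green points higher, grey points not called and a bar at each median. The 10 factors have the lowest median (-0.64) of the lists shown, the C/EBP partners (0.46) and the genes that GFI1 represses (0.52) the highest, and the other ETS genes spread to both sides of 0.

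Over the 10 factors the median log2 ratio was -0.72, -0.56 and -0.82 in experiments 1, 2 and 3, against 0.01, 0.01 and 0.03 over all tested genes. ERG, GFI1, RUNX1 and IKZF1 had the lowest ratios in each experiment. RUNX1, IKZF1 and FLI1 had their deepest fall in experiment 3, whereas SPI1 and CEBPA had theirs in experiment 1. Both WFA replicate 1 and WFA replicate 3 therefore weigh on single values, and the fall of GFI1, RUNX1, IKZF1, FLI1, CEBPA and CEBPD was called without any 1 of the 6 libraries.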

How the data were processed

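RNA of THP1 cells was sequenced in 6 libraries. Read counts for each gene symbol were deposited by the authors as whole numbers and used here without change. The labels' processing notes name bcl2fastq 2.19, Trimmomatic, Bowtie2, Picard, featureCounts and DESeq2 and the build hg38, with no settings. The annotation and strand setting are not given in the sources used here. The file also holds 6 columns of scaled counts and the authors' own comparison (fold changes, p-values), which were not used.

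Counts were fitted with edgeR 4.0.16 in R 4.3.3 (TMM, filterByExpr with a minimum count of 10, quasi-likelihood test, Benjamini-Hochberg adjustment over 12854 genes, threshold 0.05), and the fit was tested on simulated data. Intervals are 95%. DESeq2 1.42.0, a replicate block, other scalings and filters, a robust fit and leaving out each library were the alternatives. Same-numbered libraries share a code in the labels and deviated together (across-gene correlations 0.22, 0.33 and 0.25), so numbers pair the libraries. Loci and exonic lengths came from GENCODE 29, and 94.7% of tested genes had a length. Libraries of a group differed by more than sampling noise (chi-square per gene 5.98 to 11.1).

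The factors, lists and motifs were chosen with earlier results of these data known. All 10 factors are named, and on each list up to 4 called genes with the smallest p and up to 2 called against its majority. Others were named after their values were seen. Some genes of the lists and markers are not reported here by name.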

Additional observations from a re-analysis of the deposited data

How the results depend on the processing

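In 137 refits of single factors the direction and the call were as reported, in 10 the call was lost and in 2 the sign turned. The exceptions were CEBPB and SPI1, given with their values above, and CEBPE, whose sign turned without DMSO replicate 2 (0.21) and without WFA replicate 3 (0.08) and whose log2 fold change ranged from -0.23 to 0.21 with 1 library left out. The replicate block changed no call of a factor (SPI1 -0.35, edgeR adjusted p = 6.83e-05 with the block). It left 2 residual degrees of freedom, against 4, and an infinite prior. The number of factors called higher was 0 rather than 1 with library totals and 0 to 1 with 1 library left out.

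On the lists, library totals gave 1 C/EBP partner lower (0 to 1 with 1 library left out), 0 other Ikaros genes higher and 1 C/EBP target higher. DESeq2 gave 1 C/EBP target higher, with or without the replicate block, and with the block 0 other Ikaros genes higher. With no filter on low counts 1 C/EBP target was higher. With 1 library left out the higher counts ranged from 0 to 1 for other Ikaros genes and from 0 to 2 for C/EBP targets. The causes were not tested. ERG could not be tested where every library had to hold 10 counts. Depth limits ERG and CEBPE most, with at most 38 counts in any library.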
